A study of Homo sapiens with 8 samples.

Results

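The 36 genes described here are glycolytic enzymes, glucose transporters, the oxygen-sensing HIF system and known HIF targets, picked by gene symbol from the 23459 genes of the count table. All 36 were found, each in 1 row, and all 36 passed the filter on low counts that left 13925 genes to test. RNA was measured in Hct116 cells, an established human colorectal carcinoma line, after 16 h with the solvent DMSO (4 libraries) or with 30 μM lenalidomide (4 libraries). Lenalidomide binds cereblon, the substrate receptor of a cullin ubiquitin ligase, and redirects it to other proteins. The comparison asks whether the drug changes RNA levels in cells whose protein turnover was studied in parallel. The labels describe culture in DMEM with serum, whereas the study's methods describe a switch to medium with heavy amino acids at the time of treatment. Cell density and oxygen at harvest are not given. By design, 2 of the 4 replicates of each treatment were label swaps, which went the other way between media, and the labels used here do not mark which. The study's methods call the replicates technical, whereas a figure legend calls them biological, so the p-values below measure the spread between these libraries, which may be technical.

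Library totals ranged from 28218471 to 37473413 counts, and each of the 4 lenalidomide libraries was smaller than each of the 4 DMSO libraries. The cell type label was checked first. In what follows, CPM are counts scaled to each library's total and TMM factor, except that the marker sums given next were scaled to the total alone. All 8 epithelial markers were tested, and their summed level was 2450 to 2656 CPM with DMSO and 2411 to 2656 CPM with lenalidomide. Markers of fibroblasts summed to at most 4.06 CPM, of leukocytes to at most 5.83 CPM and of endothelial cells to at most 1.45 CPM in any library, and none of these markers was at 0 in every library. A lower count in such bulk RNA can come from fewer cells that express a gene or from less RNA per cell, and the table cannot tell these apart.

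In normal oxygen, the prolyl hydroxylases EGLN1, EGLN2 and EGLN3 mark the alpha subunits of the hypoxia-inducible factors, HIF1A and EPAS1, and VHL then hands them to a ubiquitin ligase. When oxygen is short the alpha subunits persist, enter the nucleus and bind a short core sequence in target genes, among them most enzymes of glycolysis, glucose transporters and VEGFA. Much of this control is on protein stability, so the RNA of HIF1A itself says little about its activity. Dense cultures can use up oxygen in the layer above the cells.

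Regulatory sequence was looked up in the promoter table of RefSeq (GRCh38.p14), which matched 31 of the 36 genes. VHL, VEGFA, NDRG1, BNIP3L and SLC2A3 had no entry. The HIF core was searched as ACGTG or GCGTG on both strands, in the 250 bases before each start. The forward and reverse forms of ACGTG share letters where CACGTG occurs, and overlapping matches were counted as 1 place. A core was found before 33 of the genes' 56 listed starts (58.9%), against 43.2% of all 35116 starts. ACGTG alone stood before 21 of the 56 (37.5%), against 18.5% of all starts. A match of 5 letters is a description of the sequence and does not show that the factor binds there.

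The upstream sequences of both lactate dehydrogenase genes and both aldolase genes are shown because the share of each paralog is compared below. HK2 is shown for its spread between DMSO libraries, and ANKRD37, an ankyrin-repeat gene, for the most negative difference with the drug. Each is written 5′ to 3′ on the gene's own strand, from 250 bases before the canonical start up to the first base that any annotated exon of the gene covers, with matches to the HIF core in capitals. LDHA lies at chr11:18394313-18394559 (plus strand), LDHB at chr12:21657972-21658092 (minus), ALDOA at chr16:30065510-30065759 (plus), ALDOC at chr17:28576949-28577145 (minus), HK2 at chr2:74833877-74834126 (plus) and ANKRD37 at chr4:185396591-185396810 (plus).
LDHA: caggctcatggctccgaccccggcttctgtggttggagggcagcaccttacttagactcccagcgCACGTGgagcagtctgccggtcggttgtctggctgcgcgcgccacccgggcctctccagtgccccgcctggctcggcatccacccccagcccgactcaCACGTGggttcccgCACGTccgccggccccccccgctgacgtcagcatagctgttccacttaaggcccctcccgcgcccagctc
LDHB: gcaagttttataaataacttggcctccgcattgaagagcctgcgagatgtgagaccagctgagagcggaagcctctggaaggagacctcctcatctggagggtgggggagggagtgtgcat
ALDOA: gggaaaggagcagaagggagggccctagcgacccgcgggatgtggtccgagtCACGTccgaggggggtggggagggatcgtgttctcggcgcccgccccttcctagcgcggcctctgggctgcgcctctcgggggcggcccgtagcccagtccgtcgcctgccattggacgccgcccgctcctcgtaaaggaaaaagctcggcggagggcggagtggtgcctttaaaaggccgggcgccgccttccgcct
ALDOC: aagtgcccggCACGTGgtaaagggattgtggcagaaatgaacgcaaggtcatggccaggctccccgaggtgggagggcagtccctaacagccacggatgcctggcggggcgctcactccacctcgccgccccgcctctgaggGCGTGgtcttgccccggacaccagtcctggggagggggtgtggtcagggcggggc
HK2: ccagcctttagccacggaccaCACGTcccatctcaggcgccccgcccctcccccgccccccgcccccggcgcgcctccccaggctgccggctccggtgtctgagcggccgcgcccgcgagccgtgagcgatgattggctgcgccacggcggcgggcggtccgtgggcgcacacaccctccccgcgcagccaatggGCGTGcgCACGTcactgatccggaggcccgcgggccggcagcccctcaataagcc
ANKRD37: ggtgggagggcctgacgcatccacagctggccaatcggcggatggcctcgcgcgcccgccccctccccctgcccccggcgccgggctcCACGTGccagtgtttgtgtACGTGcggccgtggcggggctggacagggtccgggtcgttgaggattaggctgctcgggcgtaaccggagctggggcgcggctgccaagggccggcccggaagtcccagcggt
The 247 bases shown for LDHA held 3 places with a core, whereas the whole 250 bases before LDHB held 0. ALDOC had 4 places in its 250 bases, of which 2 lie in the 197 bases shown, and ALDOA had 1. HK2 had 3 and ANKRD37 had 2.

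The level of each gene in DMSO was compared per length, as RPKM, the CPM divided by the exonic width in the table in kilobases. These values covered 3 orders of size. LDHB, which favours the conversion of lactate to pyruvate, was the highest with 1085 ± 53.4 RPKM (SD, n = 4), rank 23 of the 13925 genes tested. Next stood GAPDH with 997 ± 16.6 RPKM and the enolase ENO1 with 927 ± 75.6 RPKM, and the ranges of these neighbours over the libraries overlapped. The pyruvate kinase gene PKM had 655 ± 61.8 RPKM and LDHA, which favours lactate formation, had 398 ± 17.6 RPKM. TPI1, the triose phosphate isomerase, followed with 377 ± 19.6 RPKM, and its range overlapped that of LDHA. PGK1, the phosphoglycerate kinase, stood at 120 ± 7.13 RPKM and ALDOA at 106 ± 4.75 RPKM, again with overlapping ranges. This order depends on the exonic width, since in mean CPM with DMSO ENO1 (3417) and PKM (2178) stood above LDHB (1736).

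**Figure D1:**
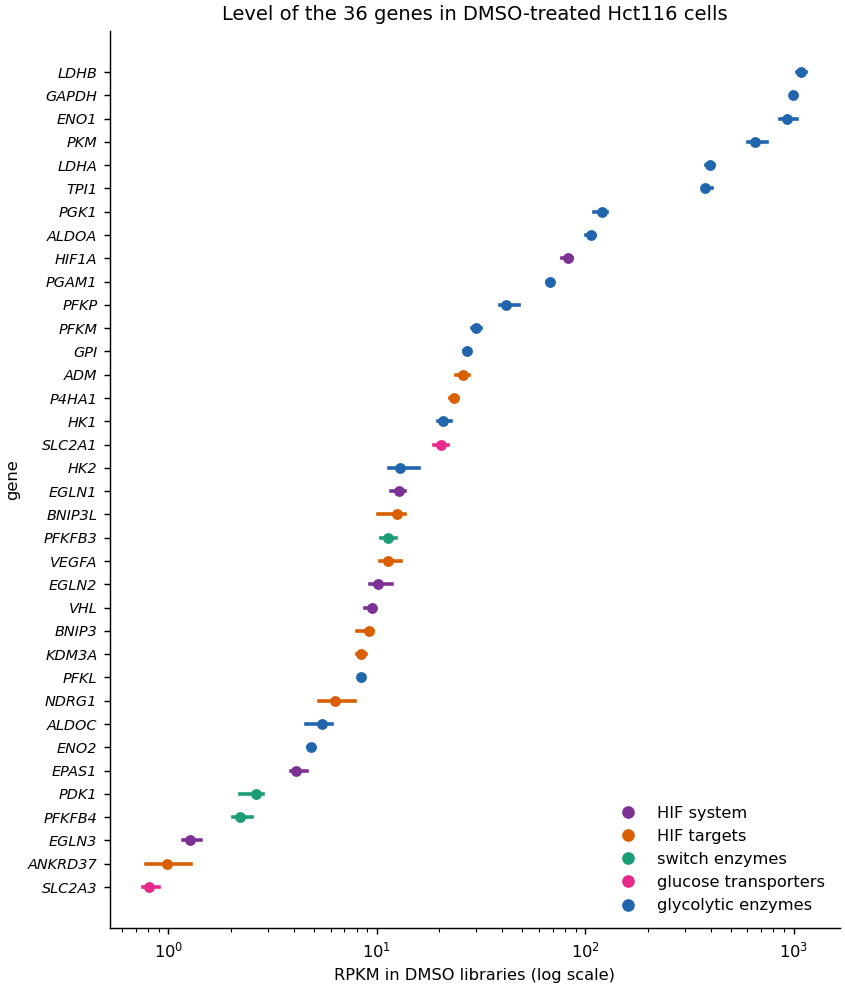
Level of the 36 genes in the 4 DMSO libraries, in RPKM on a log axis, ordered by the mean. Points are means, lines run from the lowest to the highest library and colours give the gene group. The glycolytic enzymes spread from ENO2 at 4.86 RPKM to LDHB at 1085 RPKM, and HIF1A at 83.0 RPKM stands above every other gene outside that group.

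Of the 36 genes, 8 were above 100 RPKM, all of them glycolytic enzymes, and 13 were below 10 RPKM. HIF1A had 83.0 ± 4.07 RPKM, rank 785, which was the highest value outside the enzymes. PGAM1, the mutase between both phosphoglycerates, had 67.7 ± 2.12 RPKM. The phosphofructokinases PFKP and PFKM had 41.6 ± 4.36 and 30.0 ± 1.25 RPKM, and GPI, the glucose phosphate isomerase, 27.1 ± 0.821 RPKM. Of the HIF targets, the vasodilator peptide gene ADM (25.8 ± 1.77 RPKM) and P4HA1, a subunit of collagen prolyl hydroxylase (23.4 ± 0.872 RPKM), were the highest. The glucose transporter SLC2A1 had 20.3 ± 1.28 RPKM.

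From HK2 (12.9 ± 2.003 RPKM) down to PFKL (8.36 ± 0.0622 RPKM), every neighbour overlapped the next. In this stretch lay EGLN1, BNIP3L, PFKFB3, VEGFA, EGLN2, VHL, BNIP3 and KDM3A. Genes farther apart in it can still be ordered, since EGLN1 at its lowest (11.7 RPKM) stood above VHL at its highest (9.82 RPKM). The lowest genes were the hydroxylase EGLN3 with 1.26 ± 0.121 RPKM, ANKRD37 with 0.988 ± 0.222 RPKM and the transporter SLC2A3 with 0.807 ± 0.0621 RPKM. Over the whole order, the ranges of 21 of the 35 neighbouring pairs overlapped. ANKRD37 rested on 32 to 73 counts per library and ENO1 on 88642 to 130636.

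The 17 glycolytic enzymes together took 1.23% ± 0.0382 (SD, n = 4) of all counts with DMSO and 1.21% ± 0.0440 with lenalidomide. ENO1, PKM, LDHB and GAPDH made up 72.5% ± 1.21 of these enzyme counts with DMSO and 72.1% ± 1.05 with lenalidomide. The counts do not divide PKM into its splice forms, since the table holds 1 count per gene. The choice described below is therefore between paralogous genes.

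In 9 of 10 families of paralogs, the highest member per length stood above the next in every DMSO library. ENO1 exceeded ENO2, the enolase named for neurons, 191-fold per length and made up 99.5% ± 0.0400 of this pair. SLC2A1 exceeded SLC2A3 25.2-fold and made up 96.2% ± 0.162 of theirs. HIF1A exceeded EPAS1 20.2-fold, with a share of 95.3% ± 0.339, and ALDOA exceeded ALDOC 19.4-fold, with a share of 95.1% ± 0.438. PFKFB3, which makes the activator of phosphofructokinase, held 83.7% ± 1.68 against PFKFB4.

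Other families were more even. HK1, the constitutive hexokinase, held 61.9% ± 2.12 and HK2 38.1% ± 2.12. Of the phosphofructokinases, the platelet form PFKP held 52.0% ± 1.74, the muscle form PFKM 37.6% ± 1.16 and the liver form PFKL 10.5% ± 0.619. BNIP3L, a receptor for mitophagy, held 57.7% ± 1.36 and its paralog BNIP3 42.3% ± 1.36. LDHA held 26.9% ± 1.77 and LDHB 73.1% ± 1.77, a 2.73-fold difference per length. The hydroxylases were the exception, since EGLN1 (53.0% ± 4.02) and EGLN2 (41.8% ± 4.04) overlapped, with EGLN3 at 5.24% ± 0.657.

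These shares depend on the exonic width, which joins the exons of all transcripts of a gene. In counts not divided by length, LDHA held 36.95% with DMSO, HK1 52.4%, EGLN1 72.8% and BNIP3 32.8%. By these means the highest member of each of these families stayed the same. For the hexokinases this did not hold in every library. HK2 had more counts than HK1 in DMSO replicate 3 (3851 and 3740) and in lenalidomide replicates 3 (3556 and 3398) and 4 (2922 and 2878).

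Several paralogs best known from other tissues did not pass the filter on low counts. The liver and red cell pyruvate kinase PKLR had 11 counts over all 8 libraries, HK3 8, the testis forms LDHC and PGK2 16 and 5, and muscle PGAM2 4. The muscle enolase ENO3 (32 to 74 counts per library) and the hexokinase HKDC1 (33 to 46) passed it, with 0.784 and 0.305 RPKM with DMSO. Of 38 other HIF genes, 33 passed the filter. Well expressed among them, though not the highest, were the oxidoreductase ERO1A with 45.4 ± 1.87 RPKM and the lactate exporter SLC16A3 with 19.6 ± 1.92 RPKM. P4HA2, a paralog of P4HA1, had 17.8 ± 3.005 RPKM. CA9 and LOX were among the 5 that did not pass. CA9, a carbonic anhydrase and a common marker of hypoxic tumour cells, had 14 counts over the 8 libraries and at most 3 in any of them. LOX, a lysyl oxidase, had 9 counts in all.

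With lenalidomide, the tested paralog shares of 8 of the 10 families overlapped those with DMSO. For CPM of single genes, the groups did not overlap for 2.08% of all genes tested. No such background was computed for shares of gene pairs, so the number of families cannot be set against one. The 4 DMSO libraries had HIF1A shares of 94.9%, 95.5%, 95.1% and 95.6%, and the lenalidomide libraries 94.5%, 94.8%, 94.8% and 93.9%. These groups do not overlap, and the difference was -0.771 percentage points (two-sided exact permutation test, p = 0.0286, the smallest that 4 against 4 can give, adjusted p = 0.143 over 10 families). The ALDOA share was 94.7%, 94.8%, 95.6% and 95.3% with DMSO and 93.4%, 93.2%, 93.9% and 94.4% with lenalidomide. Again the groups do not overlap, with a difference of -1.37 percentage points (exact permutation test, p = 0.0286, adjusted p = 0.143). The share of HK1 was 63.6%, 63.3%, 59.0% and 61.9% with DMSO and 60.6%, 60.6%, 58.6% and 59.3% with lenalidomide, which overlap (exact permutation p = 0.143, adjusted p = 0.357). None of the 10 families passed the threshold after adjustment, and 2 families at the smallest p that the design allows cannot pass it.

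**Figure D2:**
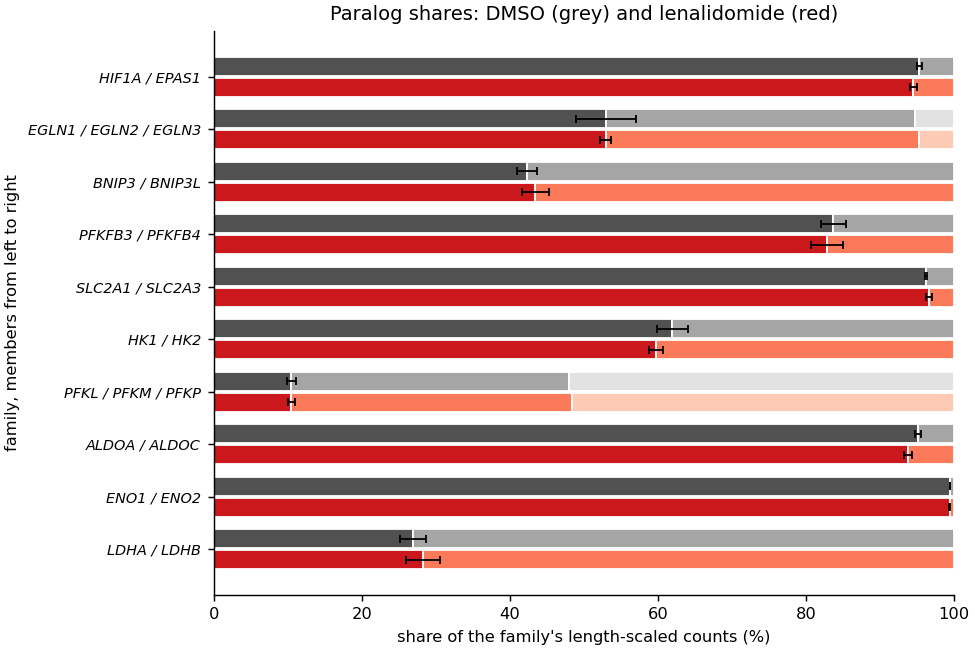
Share of each paralog in its family, in percent of the family's counts per length, as means of 4 libraries with DMSO (grey) and 4 with lenalidomide (red). Within a bar the members follow the order of the label from left to right, and error bars give the SD of the first member's share. The ALDOA share was 95.1% with DMSO and 93.7% with lenalidomide, and LDHA was the smaller share of its pair under both.

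The spread between libraries of the same treatment was measured as the SD of log2(CPM + 0.5), pooled over both treatments. Its median was 0.103 over the 36 genes and 0.109 over all genes tested. Among genes over 10 CPM it was 0.09995 for 32 members and 0.0897 for 9094 genes, and 17 of the 32 lay above the latter. The spread was largest for NDRG1, a stress-responsive HIF target (0.211), ANKRD37 (0.208), HK2 (0.170) and PFKFB4 (0.162). By group the median was 0.122 for the 8 HIF targets and 0.0821 for the 17 enzymes.

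DMSO replicate 3 lay farthest from its group mean for 24 of the 36 genes (66.7%), and also for 47.6% of all genes over 10 CPM. NDRG1 had 32.4, 31.3, 41.0 and 27.6 CPM in the DMSO libraries and 30.6, 37.3, 27.6 and 29.5 CPM with lenalidomide. HK2, the hexokinase known as a HIF target, had 86.4, 81.1, 113 and 86.1 CPM with DMSO and 92.3, 90.8, 108 and 101.3 CPM with lenalidomide. Both were highest of the DMSO group in replicate 3. On the log2 scale, this library deviated from the DMSO mean by 0.32 for NDRG1, 0.31 for HK2, 0.22 for EGLN2, 0.22 for PFKP, 0.21 for VEGFA, 0.19 for PKM and 0.16 for ENO1.

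Other HIF targets were lower in the same library. BNIP3L had 51.0, 50.1, 38.0 and 47.7 CPM with DMSO and 44.4, 47.0, 43.3 and 42.6 CPM with lenalidomide. PDK1, the kinase that shuts pyruvate dehydrogenase, had 14.4, 14.6, 11.6 and 15.1 CPM with DMSO and 14.4, 13.6, 14.2 and 13.7 CPM with lenalidomide. In DMSO replicate 3 the log2 deviation was -0.28 for BNIP3L, -0.24 for PDK1, -0.23 for ALDOC and -0.18 for BNIP3. The HIF-regulated genes thus did not deviate in one direction there.

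The mean log2 deviation from the average of all 8 libraries was small for each group. For the 11 HIF targets and switch enzymes it ran from -0.057 in lenalidomide replicate 4 to 0.062 in DMSO replicate 2, and it was -0.021 in DMSO replicate 3. For the 17 enzymes it was highest in lenalidomide replicate 2 (0.055) and DMSO replicate 3 (0.048), and lowest in lenalidomide replicate 4 (-0.043). Of these enzymes, 11 had their DMSO maximum in replicate 3, 11 their lenalidomide maximum in replicate 2 and 11 their lenalidomide minimum in replicate 4. Each count is 64.7% of the 17. The same libraries held these places for 37.5%, 32.4% and 39.4% of all genes over 10 CPM. Both treatments thus held libraries at the high and at the low end.

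Targets of YAP, a coactivator that is less active in dense cultures, were followed beside these genes: CTGF, CYR61, ANKRD1, AMOTL1, AMOTL2, AXL and LATS2. The mean log2 deviation of these 7 was 0.33 in DMSO replicate 3 and -0.100 to 0.057 in the other 7 libraries. All but ANKRD1 had their DMSO maximum in replicate 3. CYR61 had 14.8 CPM there (7.81 to 8.27 CPM in the other DMSO libraries) and AMOTL2 108 CPM (67.4 to 75.7). CTGF, at 1.43 CPM there, was close to its 1.35 CPM in DMSO replicate 4. The epithelial markers deviated by 0.072 in DMSO replicate 3, the most of the 8 libraries. Culture density was not recorded, and its part in the spread was not tested. Without DMSO replicate 3 the median spread of the 36 genes was 0.0762, and that of all genes 0.09995.

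**Figure D3:**
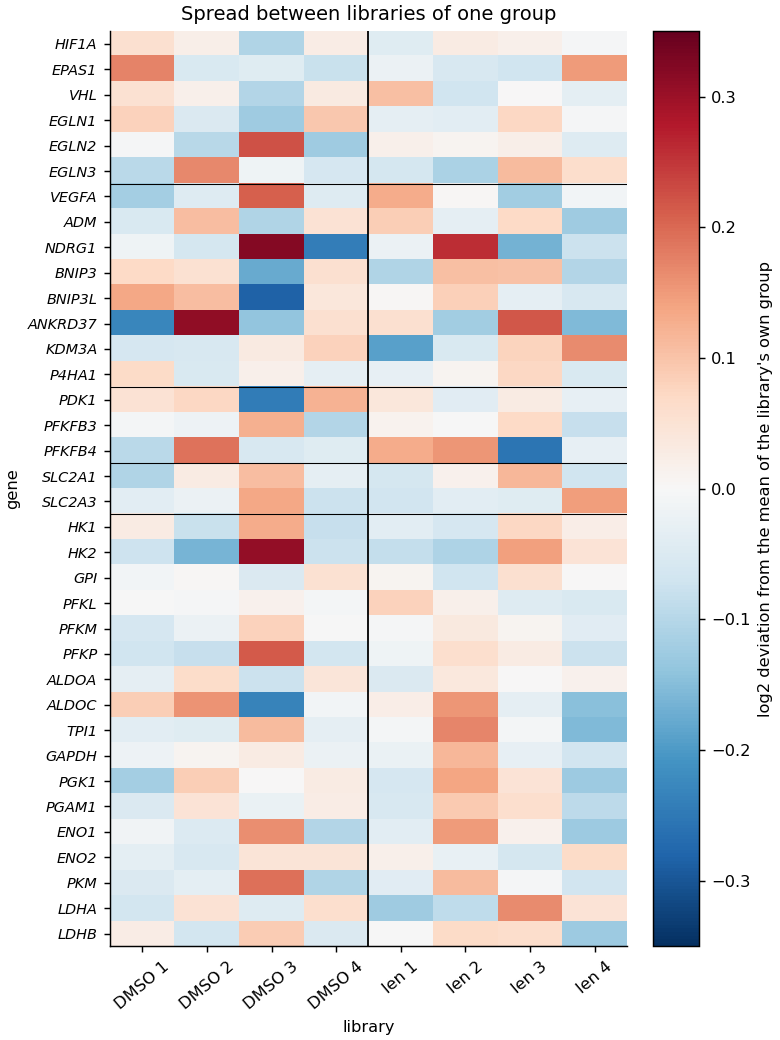
Deviation of each of the 36 genes in each library from the mean of that library's own treatment, on the log2(CPM + 0.5) scale (colour, red above and blue below). Horizontal lines part the gene groups in the order HIF system, HIF targets, switch enzymes, glucose transporters and glycolytic enzymes. DMSO 3 shows NDRG1 (0.32) and HK2 (0.31) above and BNIP3L (-0.28) and PDK1 (-0.24) below their mean.

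With lenalidomide, 0 of the 36 genes passed the threshold of adjusted p under 0.05 in edgeR's quasi-likelihood test, in either direction. Over all genes tested 0.0144% passed (2 genes). DESeq2 also called 0 of the 36, and 0.0646% of all genes (9 genes). The smallest adjusted p among the 36 was 0.999 in edgeR and 0.408 in DESeq2, the latter for ALDOC. Without adjustment, 3 of the 36 had p under 0.05 (8.33%), namely ALDOC, EPAS1 and KDM3A, against 4.18% of all genes. The groups of 4 libraries did not overlap for 1 of the 36, ALDOC, against 2.08% of all genes.

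ALDOC, the aldolase named for brain, had 9.56, 10.1, 7.57 and 8.92 CPM with DMSO and 11.9, 13.1, 11.4 and 10.5 CPM with lenalidomide. All 4 lenalidomide libraries lay above all 4 DMSO libraries. The log2 fold change was 0.37 (SE 0.098, 95% CI 0.16 to 0.59, edgeR's quasi-likelihood test, unadjusted p = 0.00193, adjusted p = 0.999). Unadjusted p stayed under 0.05 in all 14 alternative fits, with log2 fold changes of 0.30 to 0.43. The gene lies on the minus strand of chromosome 17, at 26900133 to 26903966 (hg19), and an annotated antisense gene overlaps its exons. ScriptSeq libraries keep the strand, but QuasR's default, which the study used, counts reads of either strand, so reads of both genes cannot be told apart. The ALDOA share given above rests on these same counts and adds no further evidence.

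EPAS1, which encodes HIF-2 alpha, had 26.3, 22.4, 22.6 and 22.1 CPM with DMSO and 26.5, 25.8, 25.6 and 29.8 CPM with lenalidomide. The groups overlap through DMSO replicate 1. Its log2 fold change was 0.20 (SE 0.074, 95% CI 0.045 to 0.36, edgeR's quasi-likelihood test, unadjusted p = 0.0155, adjusted p = 0.999). Without lenalidomide replicate 4 it was 0.15 (unadjusted p = 0.0576). The gene lies on the plus strand of chromosome 2, at 46520806 to 46613836, and no other annotated gene overlaps its exons. The HIF1A share given above rests on the counts of EPAS1 and of HIF1A, and adds no further evidence.

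KDM3A, a histone demethylase and HIF target, had 39.6, 39.7, 42.2 and 43.7 CPM with DMSO and 40.8, 44.8, 49.2 and 52.2 CPM with lenalidomide. Lenalidomide replicate 1 fell within the DMSO range. The log2 fold change was 0.18 (SE 0.073, 95% CI 0.022 to 0.34, edgeR's quasi-likelihood test, unadjusted p = 0.0280, adjusted p = 0.999). Unadjusted p was under 0.05 in 10 of the 14 alternative fits. Those without DMSO replicate 1 or 2, or without lenalidomide replicate 3 or 4, lifted it above 0.05. KDM3A also lies on the plus strand of chromosome 2, at 86667770 to 86719839, with no other annotated gene over its exons.

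**Figure D4:**
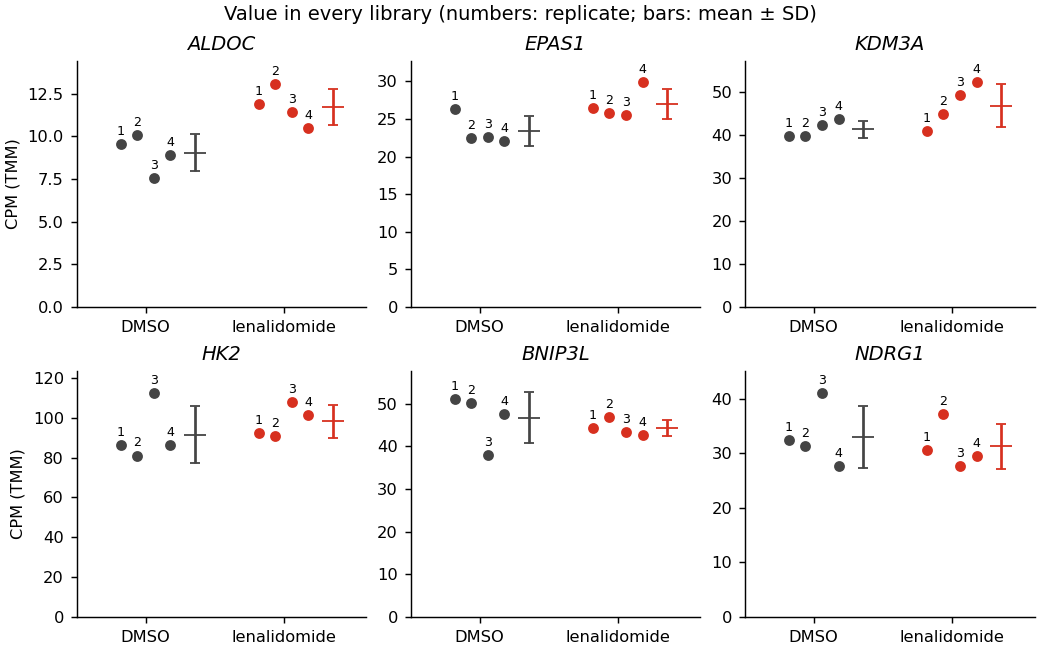
CPM (TMM-scaled) of ALDOC, EPAS1, KDM3A, HK2, BNIP3L and NDRG1 in every library, with DMSO in grey and lenalidomide in red. Numbers give the replicate and bars the mean and SD of 4 libraries. ALDOC is the only one of these 6 whose groups do not overlap, and replicate 3 is the highest DMSO library for HK2 and NDRG1 and the lowest for BNIP3L.

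In the HIF system, 1 of 6 genes had an unadjusted p under 0.05, EPAS1, against 4.18% of all genes. Among the 6, 5 log2 fold changes were negative. HIF1A was at 379, 370, 339 and 372 CPM with DMSO and 348, 366, 363 and 357 CPM with lenalidomide, groups that overlap. Its log2 fold change was -0.026 (SE 0.054, 95% CI -0.14 to 0.090). VHL had 44.8, 43.7, 40.1 and 44.1 CPM with DMSO and 43.1, 38.2, 40.1 and 39.2 CPM with lenalidomide, a log2 fold change of -0.11 (SE 0.058). EGLN3, which is itself induced by HIF, had a log2 fold change of -0.18 (SE 0.12), EGLN1 -0.021 (SE 0.059) and EGLN2 -0.0033 (SE 0.074).

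Of the 8 HIF targets, 1 had an unadjusted p under 0.05, KDM3A, against 4.18% of all genes, and 5 log2 fold changes were negative. ANKRD37 had 1.23, 2.01, 1.34 and 1.61 CPM with DMSO and 1.36, 1.15, 1.58 and 1.11 CPM with lenalidomide. Its log2 fold change of -0.25 had the widest interval of the 36 (95% CI -0.67 to 0.17). VEGFA, which drives vessel growth, had 46.2, 48.6, 58.0 and 48.7 CPM with DMSO and 53.7, 49.2, 45.03 and 48.7 CPM with lenalidomide, a log2 fold change of -0.034 (SE 0.075). The log2 fold change was 0.020 for ADM, -0.080 for NDRG1, 0.0016 for BNIP3, -0.076 for BNIP3L and -0.071 for P4HA1.

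None of the 3 switch enzymes and none of the 2 transporters had an unadjusted p under 0.05, against 4.18% of all genes. The log2 fold change was 0.00084 for PDK1 (SE 0.084), -0.0039 for PFKFB3 (SE 0.059) and 0.083 for PFKFB4 (SE 0.11). SLC2A3 had 3.08, 3.12, 3.54 and 2.98 CPM with DMSO and 2.56, 2.62, 2.62 and 3.05 CPM with lenalidomide. Its log2 fold change was -0.23 (SE 0.12, 95% CI -0.48 to 0.024), and only lenalidomide replicate 4 reached the DMSO range. SLC2A1, at 25.2 times that level per length, had -0.033 (SE 0.061).

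Of the 17 glycolytic enzymes, ALDOC alone had an unadjusted p under 0.05, against 4.18% of all genes. Among the 17, 14 had log2 fold changes smaller than 0.1 in size. GAPDH, often used as a reference gene, had 1586, 1615, 1638 and 1582 CPM with DMSO and 1553, 1710, 1548 and 1507 CPM with lenalidomide, a log2 fold change of -0.023 (SE 0.060). PKM had -0.042 (SE 0.074), ENO1 -0.022 (SE 0.078), LDHA 0.030 (SE 0.070) and LDHB -0.070 (SE 0.065). TPI1 had -0.084 (SE 0.070), ENO2 0.11 (SE 0.065) and HK2 0.10 (SE 0.092). Reads of TPI1 and PGAM1 can be shared with near-identical copies in the table (TPI1P2, TPI1P3 and PGAM4), so their levels are less certain. In the GENCODE annotation, exons of 15 of the 36 genes overlap an antisense gene and those of 10 a gene on the same strand.

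**Figure D5:**
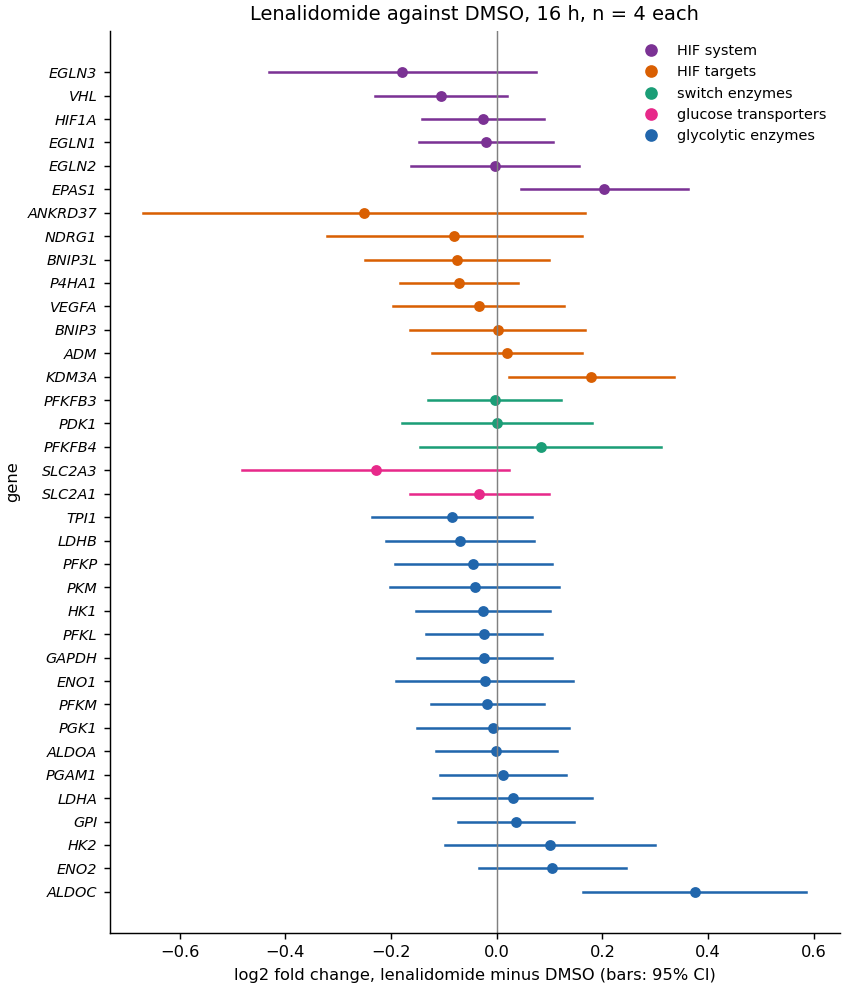
Log2 fold change of the 36 genes, lenalidomide minus DMSO (points), with 95% confidence intervals from edgeR's quasi-likelihood fit (lines) and colours for the gene group. The values run from -0.25 for ANKRD37 to 0.37 for ALDOC, and the intervals of 33 of the 36 include 0.

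Across the 36 genes the median log2 fold change was -0.022, against 0.0025 over all genes tested, with 12 positive and 24 negative (7144 and 6781 over all genes). Of the 36, 27 (75.0%) changed by less than 0.1 in size, as did 71.9% of all genes. The 95% confidence interval lay within 0.25 of 0 for 26 of them, and the median interval reached 0.15 to each side of its estimate. These intervals are not adjusted for the number of genes, so they are no detection limit at the threshold used, and ALDOC at 0.37 did not pass it. Without DMSO replicate 3 the median was 0.0012 and 6 of the 36 had an unadjusted p under 0.05, against 6.03% of all genes. BNIP3L (log2 fold change -0.17), HK2 (0.21) and VHL (-0.14) joined the 3 genes named above in that fit, with adjusted p = 0.819 for each (edgeR's quasi-likelihood test). Other left-out libraries gave 2 to 4 such genes. Without lenalidomide replicate 4 they were ALDOC and SLC2A3 (unadjusted p = 0.0387 in edgeR), without EPAS1 and KDM3A, and 2.19% of all genes. Without lenalidomide replicate 2 TPI1 joined the 3 genes (unadjusted p = 0.0479 in edgeR), with 7.42% of all genes, and without lenalidomide replicate 1 VHL did (unadjusted p = 0.0417), with 4.29%.

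The rest of the pathway was read from lists of 38 other HIF genes, of which 33 were tested, and 43 other glycolysis genes, of which 28 were tested. Neither edgeR nor DESeq2 called any of these 61, against 0.0144% and 0.0646% of all genes. An unadjusted p under 0.05 was found for 3 (4.92%), near the 4.18% of all genes. HIF1AN, the asparagine hydroxylase that blocks HIF coactivators, had 47.5, 53.7, 58.9 and 59.5 CPM with DMSO and 60.6, 53.8, 73.5 and 81.7 CPM with lenalidomide. Its log2 fold change was 0.29 (SE 0.11, unadjusted p = 0.0192), the groups overlap, and antisense genes, NDUFB8 among them, overlap its exons. PDP2, a pyruvate dehydrogenase phosphatase, had a log2 fold change of 0.16 (unadjusted p = 0.0316) and DDIT4, an inhibitor of mTOR signalling, 0.16 (unadjusted p = 0.0326). The transporter SLC2A8 had a log2 fold change of 0.21 (unadjusted p = 0.0935). The adjusted p of each of these 4 was 0.999 in the quasi-likelihood test.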

How the data were processed

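RNA of 8 Hct116 libraries was analysed, 4 with DMSO and 4 with lenalidomide. The authors made the libraries from total RNA with ScriptSeq v2 and bcl2fastq 2.17, aligned the reads to hg19 with QuasR (spliced alignment, otherwise default settings) and deposited raw exonic read counts per UCSC known gene, without normalization. By that default reads of either strand are counted. Other tool versions are not given in the sources used here. Rows without a symbol (70) held 0.0223% of the counts. All sample columns were used.

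The tests used edgeR 4.0.16, on limma 3.58.1 and R 4.3.3, with filterByExpr at minimum counts of 10 and 15 in total, TMM factors (0.971 to 1.02), the quasi-likelihood test, Benjamini-Hochberg adjustment over 13925 genes and a threshold of 0.05. The common dispersion was 0.00573. DESeq2 1.42.0 was an alternative. All p-values in the text that are not named as permutation tests or DESeq2 come from edgeR's fit across all genes. Each SE is the size of the log2 fold change divided by the square root of the test's F statistic. The 95% intervals were built from these SEs. Shares within paralog families were compared by exact permutation over libraries, two-sided. The spread used log2(CPM + 0.5). Levels in RPKM were computed here. The scripts were tested on simulated data. Gene positions are from GENCODE on GRCh37 and promoters from RefSeq.

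The members and gene lists were chosen with earlier results of these data known. Named in the text are all 36 members and, of the other HIF and glycolysis genes, those passing the threshold, the 5 with the smallest p and paralogs of the member enzymes; some of these are not reported here. CA9, LOX, ERO1A, SLC16A3, P4HA2 and PDP1 were named after their values were seen. The alternatives were other scaling, DESeq2, other filters, a replicate block, equal depth, counts not divided by length, another pseudocount and leaving out each library. Reads copied by PCR are counted like any others, so counting error may be understated.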

Additional observations from a re-analysis of the deposited data

Results flagged for a closer look

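In groups of 4 libraries, a library was picked out when its gap to the nearest other passed Dixon's 95% critical value for the group's range. Of 94 groups examined 8 met this, and about 5 would do so by chance. In DMSO replicate 3, BNIP3 had 20.0 CPM (23.5 to 23.8 CPM in the other DMSO libraries), HK2 113 CPM (81.1 to 86.4), PFKP 254 CPM (207 to 210) and TPI1 754 CPM (679 to 683). The share of PFKL among phosphofructokinases was 9.56% in the same library and 10.7% to 10.9% in the others. PFKL itself had 48.3 CPM there and 47.5 to 47.7 CPM in the others, and its share depends on the PFKP counts. EPAS1 had 26.3 CPM in DMSO replicate 1 (22.1 to 22.6 CPM in the others) and PFKFB4 9.79 CPM in DMSO replicate 2 (7.95 to 8.26). SLC2A3 had 3.05 CPM in lenalidomide replicate 4 (2.56 to 2.62 CPM in the others). DMSO replicate 3 gave 5 of the 8 values, of which PFKP and the PFKL share are not independent. A reason for this was not tested.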

How the results depend on the processing

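Neither the 36 members nor the 61 other pathway genes had a call in any alternative. Over all genes, 2 calls became 9 with DESeq2, 4 without the filter on low counts and 1 to 2 without a library. The replicate numbers were not shown to pair the libraries, and which were label swaps is not marked: same-numbered deviations correlated by 0.025, -0.027, 0.033 and 0.26 (other numbers -0.28 to 0.17). With the replicate block 6 genes were called, and ALDOC had its lowest adjusted p of all fits, 0.157 (highest 0.9998). The members' median log2 fold change was -0.032 to 0.0012 without a library, with -0.0056 without lenalidomide replicate 4. Their median spread was 0.0851 with a pseudocount of 5 and 0.0762 (without DMSO replicate 3) to 0.106 without a library. The EGLN1 share differed by 0.045 percentage points in counts not divided by length and by -1.88 to 1.23 without a library, and the PFKL share by -0.27 to 0.18. Of 504 log2 fold changes 48 turned sign, in 18 members with main sizes of at most 0.080. With other settings these were EGLN2 (0.0014 with the block, 0.00021 at equal depth), BNIP3 (-0.0022 with RLE, -0.0022 with DESeq2, -0.0067 unfiltered), PDK1 (-0.0028, -0.0029, -0.0077 likewise, -0.0061 at equal depth) and ALDOA (0.00054 with 10 counts in every library, 0.0016 at equal depth). Without a library the log2 fold change ranged from -0.065 to 0.011 for EGLN1, -0.045 to 0.074 for EGLN2, -0.080 to 0.037 for VEGFA, -0.019 to 0.059 for ADM, -0.18 to 0.036 for NDRG1, -0.058 to 0.037 for BNIP3, -0.079 to 0.043 for PDK1, -0.037 to 0.036 for PFKFB3 and -0.074 to 0.00098 for SLC2A1. For the enzymes it ranged from -0.053 to 0.015 for HK1, -0.041 to 0.0064 for PFKM, -0.073 to 0.030 for PFKP, -0.029 to 0.020 for ALDOA, -0.055 to 0.034 for PGK1, -0.019 to 0.043 for PGAM1, -0.074 to 0.031 for ENO1, -0.080 to 0.023 for PKM and -0.028 to 0.070 for LDHA. The causes were not tested. Replication at 4 against 4 limits small changes: with a library left out, the smallest permutation p is 0.0571.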

Other observations

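PDP1, the mitochondrial phosphatase that reactivates pyruvate dehydrogenase, had 641 RPKM with DMSO, near the level of PKM (655 RPKM), while its paralog PDP2 had 4.68 RPKM. PDP1 ran from 2660 to 3020 CPM over the 8 libraries, with a log2 fold change of -0.059 (SE 0.060), and the groups overlap. The annotation places no other gene over its exons. The gene was named after its value was seen, and what the reads come from was not tested.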
